A study of Mus musculus with 8 samples.

Results

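The genes described here are 10 genes of hepatic stellate cells and of the extracellular matrix of the liver: the fibrillar collagen genes Col1a1, Col1a2 and Col3a1, the basement membrane collagen genes Col4a1 and Col4a2, the small proteoglycan genes Dcn and Lum, the filament gene Des, the protease inhibitor gene Timp1 and the matricellular gene Ccn2. They were taken by name, and every probe set that the platform annotation pairs with exactly 1 of them was used. This gave 15 of the 22690 probe sets on the array, for 10 of 12393 genes. Col1a1, Col1a2, Col3a1, Col4a1 and Des have 2 probe sets each, the other 5 genes 1 each.

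Liver RNA was measured in 4 TrxR1/Gsr-null mice and 4 wild-type (WT) mice, 1 Affymetrix array per animal. All animals were female, 4 weeks old and of C57BL/6J background,, and the labels give no treatment. TrxR1 (gene Txnrd1) and Gsr reduce the cytosol's thioredoxin and glutathione, and the animals are labelled as null for both. Which liver cell types lost the genes, and by what alleles, is not given in the sources used here, so the genotype of the stellate cells themselves is not known from them. Values are log2 expression after GCRMA, and a difference is TrxR1/Gsr-null minus WT in log2 units.

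Hepatic stellate cells lie between the sinusoidal endothelium and the hepatocytes, where they store vitamin A. After liver injury they can turn into contractile myofibroblasts that lay down fibrillar collagen, and Timp1 and Ccn2 are genes known to rise in that state. Endothelial cells, portal fibroblasts and hepatocytes also make matrix, so a whole-liver level sums over cell types. In such bulk RNA, fewer cells of a type and less RNA per cell cannot be told apart.

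The label was checked first. The livers expressed the hepatocyte list at mean log2 levels of 12.03 to 12.50 in TrxR1/Gsr-null livers and 12.58 to 12.77 in WT livers. Of 12 quiescent stellate markers on the array, Hgf, Gfap, Hand2 and Lhx2 stayed under the low-value limit of 3.38 on all 8 arrays. Lrat, Ngfr, Cygb and Angptl6 had group means not far above it, from 3.52 (Cygb, WT) to 4.63 (Angptl6, WT). Reln, a secreted glycoprotein of stellate cells, averaged 9.64 in TrxR1/Gsr-null livers and 9.77 in WT livers. The means of Rgs5, Vcl and Ecm1 also lay well above the limit. That limit is the level below which the lowest 40% of genes lay by mean over the arrays. As for the targeted genes, both Gsr probe sets read lower in the livers labelled null (differences of -1.15 and -1.17, adjusted p = 0.00336 and 0.0225). The bright Txnrd1 probe set read higher there (2.11, adjusted p = 0.000156), and its other 2 lay near background. Whether any of these probes lies in a deleted stretch is not given in the sources used here, so Txnrd1 is no check of the label. On TrxR1/Gsr-null replicate 3 and on WT replicates 3 and 4 the 3′ control probe set of Actb exceeded the 5′ one by 1.498 to 1.76 log2 units, which is a sign of RNA quality, and by 1.01 to 1.17 on the 5 remaining arrays. Nothing beyond separate animals is known of the replicates, and across both genotypes replicates 3 and 4 differed from replicates 1 and 2 at 799 genes.

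**Figure D1:**
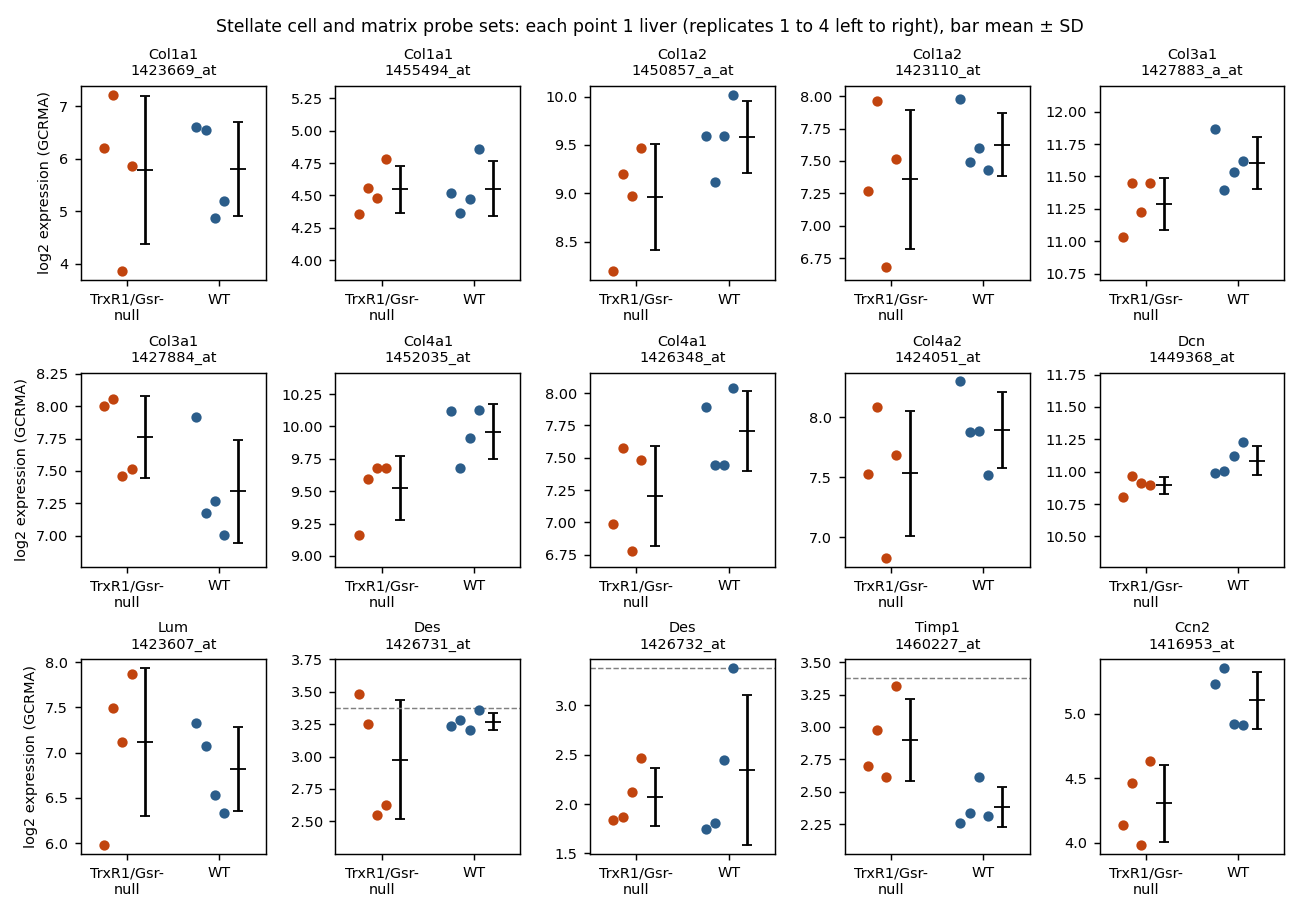
Log2 expression (y axis) of the 15 probe sets in TrxR1/Gsr-null livers (orange, left) and WT livers (blue, right). Each point is 1 liver, in the order of replicates 1 to 4, the bar is the mean with SD over 4 livers, and the dashed line is the low-value limit of 3.38. The groups do not overlap at Ccn2, Dcn and 1 Col4a1 probe set, and at each of them the TrxR1/Gsr-null values are the lower ones.

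Of the 10 genes, 8 were tested as genes and 1 was called. This was Ccn2, lower in TrxR1/Gsr-null livers and at the edge of the threshold. None was called higher, and a gene without a call is not shown to be unchanged. Of the 8 genes that passed the filter on low values, 7 had a lower mean in TrxR1/Gsr-null livers and 1, Lum, a higher one. Over all genes tested 39.9% of differences were negative. Without WT replicates 3 and 4 all 8 were negative, beside 53.8% over all genes. After quantile normalization 7 of the 8 were negative, beside 51.3% over all genes. Des and Timp1 did not pass and were tested only among all probe sets. The fit by limma over 7534 genes called 2.15% of them lower and 4.47% higher at an adjusted p below 0.05, so 1 call among 8 genes is a small count to read against that background. At an unadjusted p below 0.05 the counts were 2 lower, Ccn2 and Col4a1, and 0 higher. Over all 7534 genes tested 597 were lower and 1125 higher at that level. The 4 TrxR1/Gsr-null values lay wholly below the 4 WT values at 3 of the 8 genes, Ccn2, Col4a1 and Dcn, and wholly above at 0. Over all genes tested 5.84% lay wholly below and 10.7% wholly above. Among all 22626 probe sets, with no filter on low values, 0.888% were called lower and 2.09% higher, and of the 15 probe sets 0 were called in either direction, with 2 lower and 1 higher at an unadjusted p below 0.05. The median difference of the 8 genes was -0.34, beside 0.10 over all genes tested. A further quantile normalization moved the median of all genes by -0.11 and left the 8 genes 0.42 below it, against 0.43 below it before. With array weights the median of the 8 genes was -0.20, which is 0.23 below that of all genes. Without WT replicates 3 and 4 the median of the 8 genes was -0.38, beside -0.04 over all genes.

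**Figure D2:**
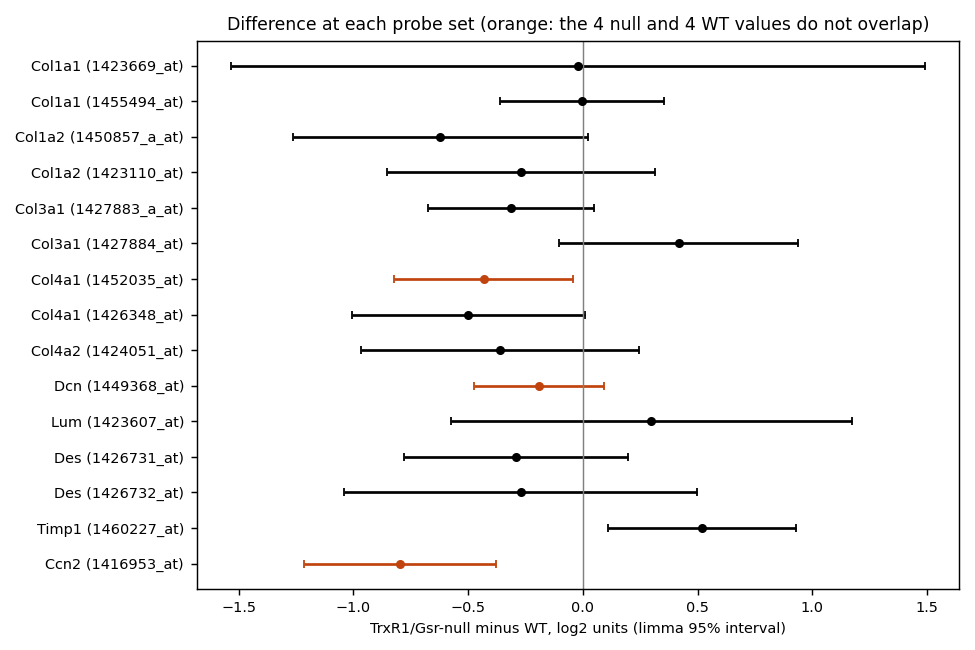
Difference between TrxR1/Gsr-null and WT livers in log2 units (x axis) at each of the 15 probe sets, with the 95% interval of the limma fit over all probe sets. Negative values are lower in TrxR1/Gsr-null livers, and orange marks the 3 probe sets whose groups do not overlap. The interval at Ccn2 runs from -1.22 to -0.38, and that of the wider-spread Col1a1 probe set from -1.53 to 1.49.

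Ccn2, also known as connective tissue growth factor, is a secreted matricellular protein that acts with TGF-beta and is a target of the YAP and serum response pathways. Its log2 values were 4.14, 4.46, 3.99 and 4.63 in TrxR1/Gsr-null livers, against 5.23, 5.35, 4.92 and 4.91 in WT livers. Every TrxR1/Gsr-null liver read lower than every WT liver. The means were 4.30 ± 0.30 in TrxR1/Gsr-null livers and 5.10 ± 0.22 in WT livers (SD, n = 4 each), 1.74-fold lower, with a difference of -0.80 ± 0.21 SE and adjusted p = 0.0461 over all genes tested. The call stands at the edge of the threshold. It was lost when any 1 of the 8 arrays was left out, with adjusted p from 0.0513 to 0.123, when WT replicates 3 and 4 were dropped (adjusted p = 0.0536), when low genes were kept in (adjusted p = 0.0513) and under a trended and robust variance prior (adjusted p = 0.06). Among all probe sets its adjusted p was 0.0565. The difference itself stayed between -0.99 and -0.61 in every setting that tested it. It was -0.99 within replicates 1 and 2 and -0.61 within replicates 3 and 4. Within the genotypes, the deviations of Ccn2 from its group means had r = -0.826 with those of the Actb difference over the 8 arrays, and the part of RNA quality in them was not tested.

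**Figure D3:**
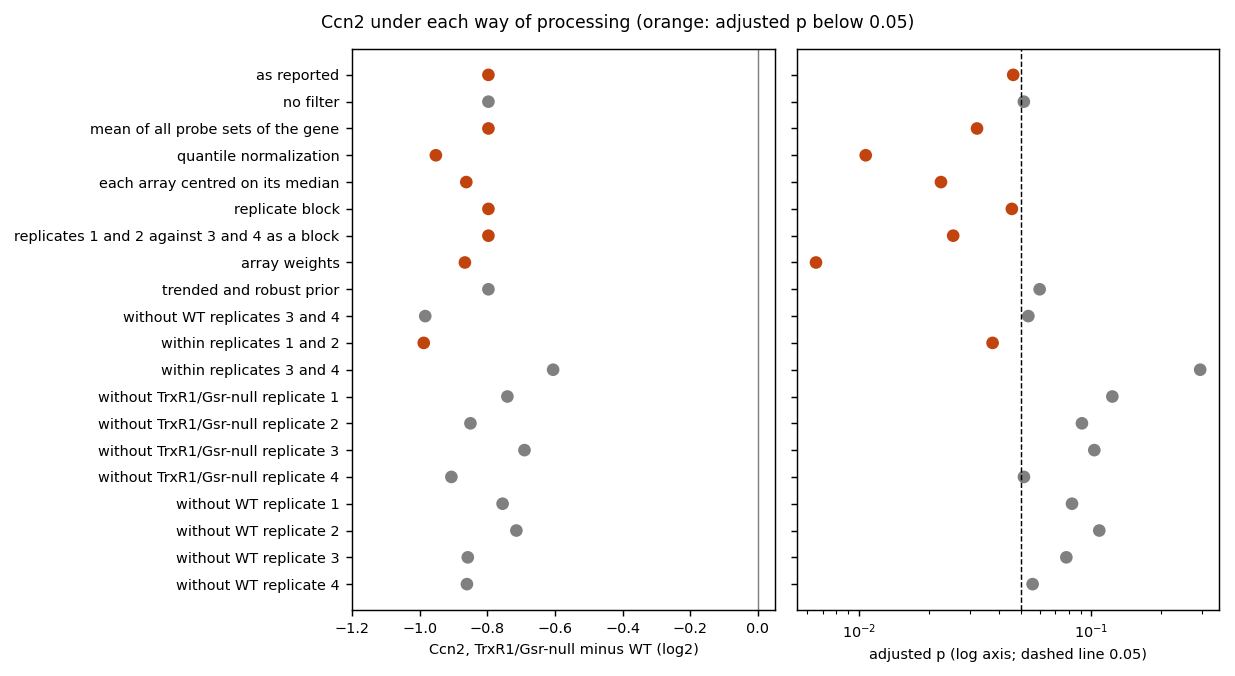
Ccn2 difference between TrxR1/Gsr-null and WT livers in log2 units (left x axis) and its adjusted p (right x axis, log scale, dashed line at 0.05) under each way of processing, 1 row each. Orange points have an adjusted p below 0.05. All differences are negative, and the adjusted p lies on both sides of the line, from 0.00654 with array weights to 0.294 within replicates 3 and 4.

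The other CCN genes and targets of the same pathways did not share a direction. Of 15 on the array 11 were tested by limma, and 0 were called higher and 0 lower. At an unadjusted p below 0.05 there were 2 and 2, beside 1125 higher and 597 lower of the 7534 genes tested. Ccn1, the family member closest to Ccn2 in its known regulation, averaged 4.14 in TrxR1/Gsr-null livers and 3.91 in WT livers (adjusted p = 0.625). Egr1, an immediate early gene, averaged 8.83 in TrxR1/Gsr-null livers and 10.46 in WT livers without a call (adjusted p = 0.16), with an SD of 1.20 in TrxR1/Gsr-null livers and 1.06 in WT livers. The other highest genes of the list, Birc5, a mitotic survival factor, and Klf6, a zinc finger factor, differed by 1.11 and 0.82 and were not called. Of the genes tested, the ones whose levels followed Ccn2 most closely over the 8 arrays were Dazap1 (Pearson r = 0.972), Acad8 (r = 0.967) and Pitpnb (r = 0.966), a description that includes the difference between the genotypes. Col1a1 was followed most closely by Ubap2l (r = 0.975), Pfn1 (r = 0.966) and Ipo9 (r = 0.961). For Col4a1 these genes were Tmem176a (r = 0.956), Ctsb (r = 0.953) and Csnk1g2 (r = 0.948), and for Timp1 they were Nsf (r = 0.975), Epb41l1 (r = 0.963) and Cachd1 (r = 0.960).

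Col1a1 and Col1a2 encode the chains of type I collagen, the main fibrillar collagen of scar. Neither was called. The brighter Col1a1 probe set read 6.19, 7.22, 3.86 and 5.86 in TrxR1/Gsr-null livers, against 6.60, 6.55, 4.87 and 5.19 in WT livers. Its values spread over more than 3 log2 units among the TrxR1/Gsr-null livers, and the groups overlap almost fully. The difference was -0.02 with a 95% interval from -1.48 to 1.44 (adjusted p = 0.99), so a change of more than 2-fold either way is not excluded at this probe set. It became 0.62 without TrxR1/Gsr-null replicate 3 and -0.50 without TrxR1/Gsr-null replicate 2, both uncalled. The lowest of all 8 values was on TrxR1/Gsr-null replicate 3 and the next on WT replicates 3 and 4, the same 3 arrays on which the Actb ends differed most. Over the 8 arrays the probe set and the Actb difference had r = -0.958, and the part of RNA quality in these values was not tested. The difference of replicates 3 and 4 minus replicates 1 and 2 was -1.70 here, given the genotype (adjusted p = 0.0292). The dimmer Col1a1 probe set showed none of this spread, at 4.36, 4.56, 4.48 and 4.78 in TrxR1/Gsr-null livers, against 4.52, 4.37, 4.47 and 4.86 in WT livers. Its difference was -0.0048 with an interval from -0.36 to 0.35.

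Col1a2 at its brighter probe set read 8.20, 9.20, 8.97 and 9.46 in TrxR1/Gsr-null livers, against 9.59, 9.12, 9.59 and 10.02 in WT livers. TrxR1/Gsr-null replicate 1 was the lowest, and the next values of the 2 groups overlap. The mean was 1.54-fold lower (difference -0.62, interval -1.27 to 0.03, adjusted p = 0.242), and leaving out TrxR1/Gsr-null replicate 1 gave -0.37. The other probe set gave -0.27 with adjusted p = 0.648 over all probe sets. It followed Col4a2 closely over the 8 arrays (r = 0.973), and its lowest value, 6.68, was again on TrxR1/Gsr-null replicate 3.

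**Figure D4:**
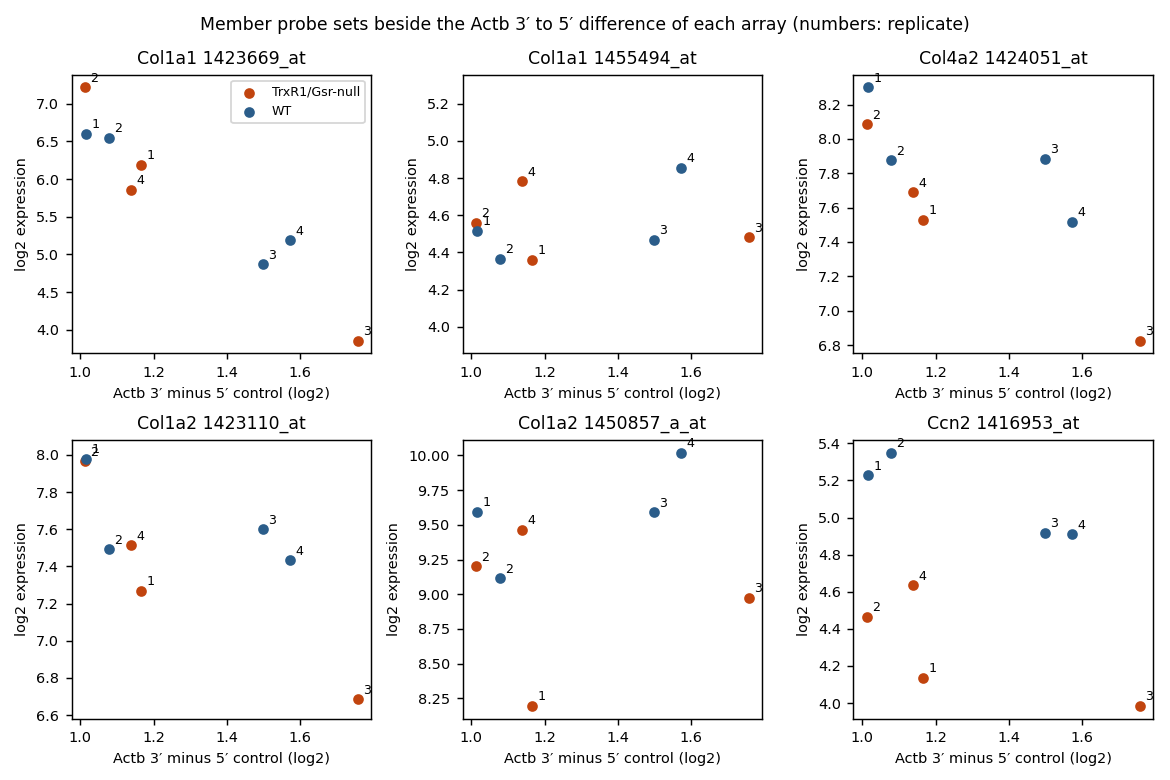
Log2 expression (y axis) of 6 probe sets of Col1a1, Col1a2, Col4a2 and Ccn2 against the difference between the 3′ and 5′ control probe sets of Actb on the same array (x axis, log2 units), for TrxR1/Gsr-null livers (orange) and WT livers (blue), numbered by replicate. The brighter Col1a1 probe set is lowest on the 3 arrays on the right, while Ccn2 is lower in the TrxR1/Gsr-null livers on both sides of the gap.

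Col3a1 encodes type III collagen, which forms fibrils together with type I. Its brighter probe set read 11.03, 11.45, 11.23 and 11.45 in TrxR1/Gsr-null livers, against 11.87, 11.39, 11.53 and 11.62 in WT livers. Only the lowest WT liver, replicate 2, lay within the range of the TrxR1/Gsr-null livers. The difference was -0.31 (interval -0.72 to 0.09, adjusted p = 0.348). The dimmer probe set pointed the other way, at 8.003, 8.06, 7.46 and 7.51 in TrxR1/Gsr-null livers, against 7.91, 7.18, 7.27 and 7.004 in WT livers, a difference of 0.42 (adjusted p = 0.409). The gap between the 2 probe sets was 3.03 to 3.93 log2 units in TrxR1/Gsr-null livers and 3.95 to 4.61 in WT livers, without overlap, and was not tested. With the mean of both probe sets in place of the brighter one, the Col3a1 difference was 0.052, so the array gives no settled direction for this gene.

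Col4a1 and Col4a2 encode the chains of type IV collagen, the network former of basement membranes, made in liver by endothelial and stellate cells. The genes lie head to head on chromosome 8, Col4a1 at chr8:11198423-11312889 and Col4a2 at chr8:11312805-11449287 in the RefSeq annotation of GRCm38.p6. The RefSeq promoter windows, which run from 250 bases before to 50 bases after an annotated start, are shown because these neighbours share their start region and could vary together. The Col4a1 window is chr8:11312777-11313076 on the minus strand, the Col4a2 window chr8:11312555-11312854 on the plus strand, and capitals mark the 78 bases that both hold, each read 5′ to 3′ on its own strand.
Col4a1: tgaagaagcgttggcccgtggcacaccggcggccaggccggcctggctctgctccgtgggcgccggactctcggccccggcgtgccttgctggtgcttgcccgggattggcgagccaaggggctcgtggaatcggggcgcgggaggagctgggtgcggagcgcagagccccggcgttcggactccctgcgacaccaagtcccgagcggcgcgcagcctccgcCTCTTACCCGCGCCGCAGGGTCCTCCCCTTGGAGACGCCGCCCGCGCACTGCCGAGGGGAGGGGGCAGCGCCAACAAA
Col4a2: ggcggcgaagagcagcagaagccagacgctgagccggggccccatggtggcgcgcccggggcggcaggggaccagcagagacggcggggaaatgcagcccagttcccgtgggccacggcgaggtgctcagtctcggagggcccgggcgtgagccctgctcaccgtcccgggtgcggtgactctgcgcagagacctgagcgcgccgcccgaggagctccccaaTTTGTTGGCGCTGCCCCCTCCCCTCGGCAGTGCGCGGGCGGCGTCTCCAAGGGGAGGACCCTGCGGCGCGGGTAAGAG
The starts on which these windows were built are 21 bases apart, and that of Col4a1, 11312826, lies inside the annotated end of the gene, so other annotated starts exist. TATAAA is in neither window on either strand, against 13.6% of all 32851 windows in the table, and CCAAT is once in each window, in neither wholly within the shared stretch (in the Col4a2 window it overlaps the first capital), against 37.4% of all windows with at least 1. GGGCGG is 1 time in the Col4a1 window and 3 times in the Col4a2 window, 1 of them in the shared stretch, against 35.7% of all windows with at least 1. Windows were found for 6 of the 10 genes, and a match of letters is no evidence of a site.

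Col4a1 at its brighter probe set read 9.16, 9.59, 9.68 and 9.68 in TrxR1/Gsr-null livers, against 10.12, 9.68, 9.91 and 10.13 in WT livers. The groups just fail to touch, the highest TrxR1/Gsr-null value and the lowest WT value both rounding to 9.68. The mean was 1.35-fold lower with a difference of -0.43 ± 0.19 SE, an interval from -0.86 to -0.0016 and adjusted p = 0.216. The other probe set gave -0.50 (adjusted p = 0.316 over all probe sets), with groups that overlap. Col4a2 read 7.53, 8.08, 6.83 and 7.69 in TrxR1/Gsr-null livers, against 8.30, 7.88, 7.88 and 7.52 in WT livers. Its difference was -0.36 (interval -0.98 to 0.26, adjusted p = 0.475). Leaving out TrxR1/Gsr-null replicate 3, which held its lowest value, gave -0.13. All 3 probe sets of the pair thus had a lower mean in TrxR1/Gsr-null livers, under both other scalings as well, and none was called. The levels of Col4a2 followed those of Col4a1 with r = 0.28 at the brighter and r = 0.67 at the dimmer Col4a1 probe set over the 8 arrays. Col4a2 had r = -0.787 with the Actb difference, whose part in these values was not tested.

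Dcn and Lum encode decorin and lumican, small leucine-rich proteoglycans that bind collagen fibrils, and are neighbours on chromosome 10. Neither was called. Dcn was the tightest of the 10 genes, at 10.80, 10.96, 10.92 and 10.89 in TrxR1/Gsr-null livers, against 10.99, 11.00, 11.12 and 11.23 in WT livers. Its groups did not overlap, but the means differed by only 1.14-fold (difference -0.19, interval -0.54 to 0.16, adjusted p = 0.51). Lum read 5.98, 7.49, 7.12 and 7.87 in TrxR1/Gsr-null livers, against 7.33, 7.08, 6.54 and 6.33 in WT livers. The TrxR1/Gsr-null livers held both its lowest and its highest values. Its difference of 0.30 (interval -0.57 to 1.16, adjusted p = 0.703) was -0.46 within replicates 1 and 2 and 1.06 within replicates 3 and 4, and neither was called.

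Des, Timp1 and their background were read near the floor of the array. Des encodes desmin, the intermediate filament of rodent stellate cells and of muscle. Its brighter probe set read 3.48, 3.25, 2.55 and 2.63 in TrxR1/Gsr-null livers, against 3.24, 3.28, 3.20 and 3.36 in WT livers, and 1 of these 8 values exceeded the low-value limit. At its other probe set 1 value exceeded it too. Timp1 encodes an inhibitor of matrix metalloproteinases. It read 2.70, 2.97, 2.61 and 3.32 in TrxR1/Gsr-null livers, against 2.26, 2.34, 2.61 and 2.31 in WT livers. All 8 values were under the limit, and the mean was 1.43-fold higher in TrxR1/Gsr-null livers (difference 0.52, interval 0.11 to 0.93, adjusted p = 0.193 over all probe sets). GCRMA draws such low values together, so neither gene's level can be read as absent or its difference as a fold of RNA.

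The other genes of the matrix were read through 5 lists: other collagens, collagen processing, proteoglycans, basement membrane and matrix glycoproteins, and matrix proteases with their inhibitors. Of 55 such genes tested, the call was higher in TrxR1/Gsr-null livers for 3 and lower for 5, beside 4.47% higher and 2.15% lower over all genes tested. Of the 55 differences 41 were negative, beside 39.9% of those over all genes. After quantile normalization 42 were negative, beside 51.3% over all genes, and after median centring of the arrays 41, beside 46.9%. Their median difference was -0.25, beside 0.10 over all genes tested. Without WT replicates 3 and 4 there were 45 negative differences among the 55, beside 53.8% over all genes. With the replicate number as a block 3 of the 55 genes were called higher and 11 lower. Over all genes that fit called 454 higher and 240 lower, against 337 and 162 without a block. Leaving out TrxR1/Gsr-null replicate 2 or WT replicate 3 left 1 lower call among the matrix genes. Leaving out WT replicate 4 left 2, and leaving out TrxR1/Gsr-null replicate 4 or WT replicate 1 left 3. Over all genes the lower calls of these fits were 81, 89, 126, 111 and 130, in that order.

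**Figure D5:**
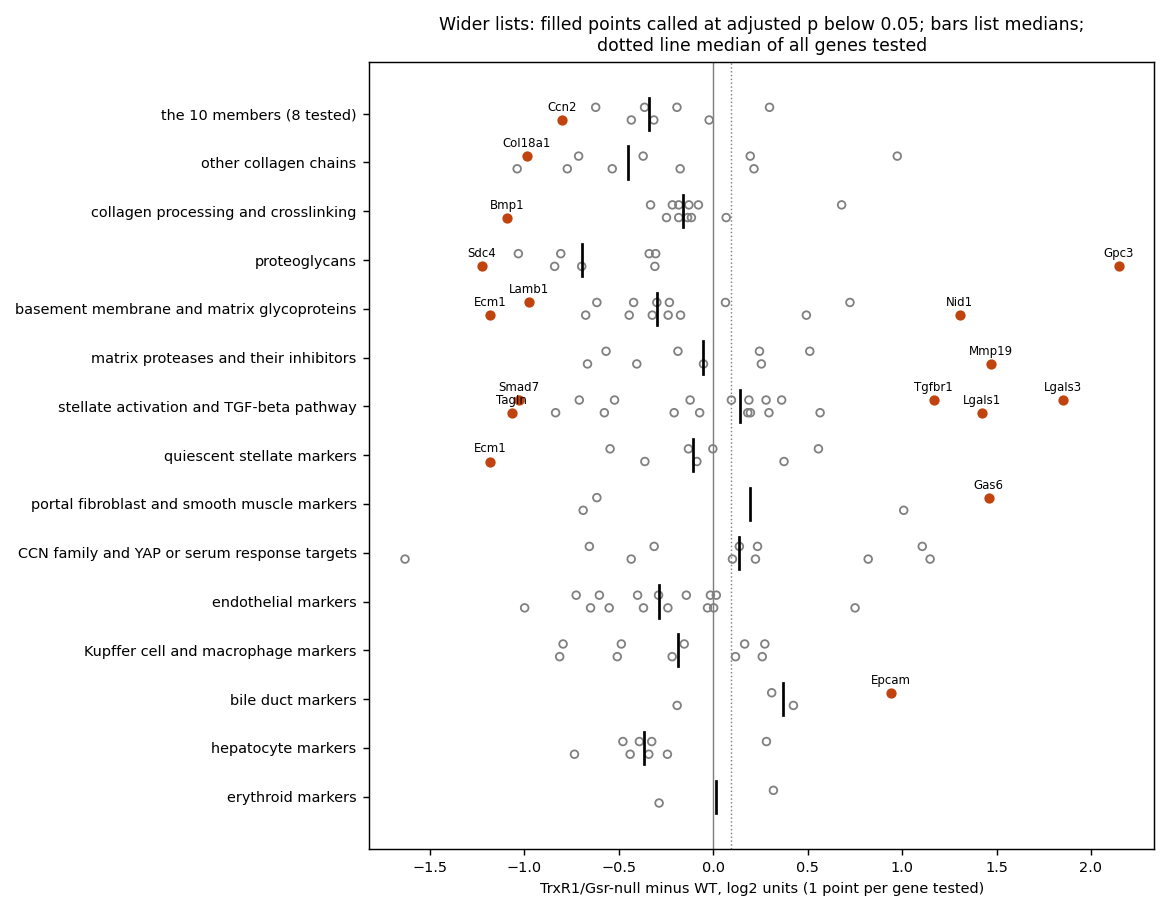
Difference between TrxR1/Gsr-null and WT livers in log2 units (x axis) for each gene tested, 1 row per list. Filled and named points were called at an adjusted p below 0.05, black bars are list medians and the dotted line is the median of all genes tested, 0.10. The matrix lists lie mostly left of that line, with Gpc3, Nid1 and Mmp19 as called exceptions on the right. This is not particular to them. The medians of the hepatocyte (-0.37), endothelial (-0.29), Kupffer cell (-0.18), quiescent stellate (-0.11) and erythroid (0.017) lists also lie left of it. Those of the stellate activation, portal fibroblast, CCN and bile duct lists lie right of it.

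Among other collagens 1 of 10 tested was called lower and 0 higher. Col18a1, the basement membrane collagen from which endostatin is cut, fell 1.98-fold, with values of 10.34, 10.61, 10.46 and 10.68 in TrxR1/Gsr-null livers, against 11.60, 11.57, 11.31 and 11.55 in WT livers (adjusted p = 0.00716). All TrxR1/Gsr-null livers read lower than all WT livers. It kept its call whichever array was left out, and its other probe set gave a difference of -1.16. The list's mean level was 4.68 to 4.997 in TrxR1/Gsr-null livers and 5.02 to 5.24 in WT livers. Col14a1, a collagen that associates with fibrils, averaged 8.83 in TrxR1/Gsr-null livers and 9.60 in WT livers without overlap or a call (adjusted p = 0.0698), and was called with the replicate number as a block (adjusted p = 0.0397), as was Col6a3 (adjusted p = 0.0369).

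In basement membrane and matrix glycoproteins 1 of 15 was called higher and 2 lower. Nid1, which links laminin to type IV collagen, rose 2.47-fold, at 9.96, 10.08, 9.83 and 10.34 in TrxR1/Gsr-null livers, against 9.29, 8.83, 8.59 and 8.29 in WT livers (adjusted p = 0.00953). It is thus opposite in direction to the means of Col4a1 and Col4a2. Its dim second probe set differed by 0.16 and was not called. Lamb1, a laminin chain, fell 1.97-fold (adjusted p = 0.0281), and Ecm1, a secreted matrix glycoprotein, fell 2.27-fold (adjusted p = 0.0304). Other Lamb1 probe sets differed by -0.59 and, near background, by 0.035, and were not called. Fn1, fibronectin, averaged 11.35 in TrxR1/Gsr-null livers and 12.03 in WT livers and was not called (adjusted p = 0.092), but was with the replicate number as a block (adjusted p = 0.0459).

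Of 9 proteoglycans 1 was called higher and 1 lower. Gpc3, a cell surface glypican known from fetal liver, rose 4.43-fold, at 5.06, 5.48, 5.01 and 5.80 in TrxR1/Gsr-null livers, against 3.23, 2.75, 2.61 and 4.18 in WT livers (adjusted p = 0.00521). Its WT mean lay under the low-value limit, so the fold depends on the background correction. Sdc4, a cell surface syndecan, fell 2.33-fold (adjusted p = 0.0315) at 1 probe set, while the other differed by -0.030. With the replicate number as a block 4 proteoglycans were called lower, Sdc1, Sdc2 and Gpc4 being the added ones. In collagen processing 1 of 12 was called lower and 0 higher, Bmp1, the protease that trims procollagen (2.13-fold, adjusted p = 0.0335), and a second probe set of it differed by 0.082. Serpinh1, the collagen chaperone, averaged 8.20 in TrxR1/Gsr-null livers and 8.28 in WT livers. Among 9 proteases and inhibitors 1 was called higher and 0 lower. Mmp19, a metalloproteinase, rose 2.77-fold (adjusted p = 0.00466), while Timp2 and Timp3, relatives of Timp1, differed by -0.19 and -0.40 without a call.

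Genes of stellate activation and TGF-beta signalling were called in both directions. Of 20 tested, 3 were called higher and 2 lower. Tagln, a contractile protein of smooth muscle and myofibroblasts, fell 2.09-fold, at 3.95, 4.31, 4.25 and 4.09 in TrxR1/Gsr-null livers, against 5.87, 5.34, 5.02 and 4.64 in WT livers (adjusted p = 0.0352). Acta2, the smooth muscle actin that defines myofibroblasts, averaged 5.65 ± 0.07 in TrxR1/Gsr-null livers and 6.48 ± 0.47 in WT livers (SD, n = 4 each), without overlap and without a call (adjusted p = 0.0633). Smad7, an inhibitor that TGF-beta induces, fell 2.04-fold (adjusted p = 0.0215). In the other direction, the receptor gene Tgfbr1 rose 2.25-fold (adjusted p = 0.0158). Its other probe sets, with means under the low-value limit, differed by 0.035 and -0.44 and were not called. The galectin genes Lgals1 and Lgals3 rose 2.68-fold (adjusted p = 0.00659) and 3.61-fold (adjusted p = 0.034). The Lgals3 call was lost with the replicate number as a block (adjusted p = 0.0515). Tgfb1 itself averaged 3.605 in TrxR1/Gsr-null livers and 4.31 in WT livers (adjusted p = 0.139), and Pdgfrb, a receptor on stellate cells, 7.13 in TrxR1/Gsr-null livers and 6.93 in WT livers (adjusted p = 0.806).

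Of the 15 called genes of the wider lists, Epcam and Gas6 included, Col18a1, Nid1, Gpc3, Mmp19, Tgfbr1, Lgals1 and Gas6 kept their call whichever array was left out, and the other 8 lost the call without at least 1 array. Without WT replicates 3 and 4, 8 were not called, Lamb1, Ecm1, Epcam, Bmp1, Sdc4, Smad7, Tgfbr1 and Lgals3 (adjusted p from 0.0509 to 0.168). With the mean of all probe sets of a gene, Lamb1, Nid1, Bmp1, Sdc4 and Tgfbr1 were not called.

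Markers of the cells that could supply matrix are given beside these results. Of 8 quiescent stellate markers tested 1, Ecm1, which is also a matrix list gene, was called lower and 0 higher. Of these 8 differences 6 were negative, with a median of -0.11. Lrat, Ngfr and Angptl6 differed by -0.36, -0.086 and -0.55, and Cygb and Vcl by 0.38 and 0.56, without a call. The pericyte gene Rgs5 averaged 8.09 in TrxR1/Gsr-null livers and 8.09 in WT livers, with an SD of 0.12 and 0.81. Of 15 endothelial markers 0 were called by limma in either direction. At an unadjusted p below 0.05 there were 3 lower and 0 higher, beside 597 and 1125 of the 7534 genes tested. The mean level of the endothelial markers was 6.49 to 6.71 in TrxR1/Gsr-null livers and 6.66 to 7.16 in WT livers, with 12 of 15 differences negative. Their highest genes differed by -0.014 (Clec4g), -0.14 (Fcgr2b) and -0.030 (Ptprb). Of 4 portal fibroblast and smooth muscle markers tested, 2 differences were positive and 2 negative. Gas6, a secreted ligand of the Axl receptor, was called higher (2.75-fold, adjusted p = 0.00667). Eln and Myl9 differed by -0.62 and -0.69 without a call (limma adjusted p = 0.103 and 0.25). Thy1, Fbln2, Cnn1 and Mfap4 stayed under the limit on all arrays. Of 10 Kupffer cell and macrophage markers 0 were called, with 0 higher and 3 lower at an unadjusted p below 0.05, and 6 of 10 differences were negative. The highest genes of that list, Cd5l, Vsig4 and Lyz2, differed by -0.15, -0.51 and 0.26. Of 8 hepatocyte markers 0 were called, with 0 higher and 1 lower at that unadjusted p, and 7 of 8 differences were negative. Alb, Apoa1 and Ttr differed by -0.48, -0.32 and -0.24. Of 4 bile duct markers Epcam, an epithelial adhesion molecule, was called higher (1.92-fold, adjusted p = 0.041). All 4 WT values of Epcam lay under the low-value limit, so the fold depends on the background correction, and the call was lost when low genes were kept in (adjusted p = 0.0513). Of 2 erythroid markers tested, Alas2 (-0.29) and Slc4a1 (0.32), 0 were called, and 0 at an unadjusted p below 0.05. With the replicate number as a block the endothelial genes Stab2 and Egfl7 (adjusted p = 0.0479 and 0.018) and the macrophage receptor gene Csf1r (adjusted p = 0.0308) were called lower, and Entpd2 of the portal fibroblast list was called higher (adjusted p = 0.0417). The part of these cell types in the matrix values was not tested.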

How the data were processed

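Probe sets were paired with genes through the platform annotation, with symbols updated by gene identifier in a RefSeq table of GRCm38.p6 (20351 of 20380 matched). The deposited values are log2 expression, 1 per probe set and array. The authors used GCRMA, per the submitters' processing notes, and its version and settings are not given there. That the scale is log2 follows from the range of the values, 0.53 to 14.6. Per the labels, a RiboPure kit gave the RNA and a MessageAmp kit the biotin label. An array gives no depth, and 4 arrays per group limit the precision.

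Each gene was read at 1 probe set, the highest by mean over all arrays (an _x_at set only where no other existed). Genes among the lowest 40% by mean (limit 3.38) were left out unless 4 arrays exceeded that limit, leaving 7534 of 12393. The test between genotypes was limma 3.58.1 under R 4.3.3 (lmFit, eBayes, 2 groups, two-sided, Benjamini-Hochberg over all genes or over all 22626 probe sets that are no controls), and called at an adjusted p below 0.05. Intervals are limma's, at 95%. The fit was tested on simulated data.

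Members and lists were chosen with earlier results of these data known. The text names all members, up to 3 called genes per list and direction, the 3 highest genes of a list without a call, and the 3 genes most like Col1a1, Col4a1, Ccn2 and Timp1 in pattern. Ccn1, Col14a1, Col6a3, Sdc1, Sdc2, Gpc4, Stab2, Egfl7, Csf1r, Entpd2, Eln, Myl9, Fn1, Serpinh1, Timp2, Timp3, Acta2, Tgfb1, Pdgfrb, Reln, Rgs5, Lrat, Ngfr, Cygb, Angptl6, Vcl and markers under the limit were named after their values were seen. No 2 arrays were identical (highest correlation 0.994). Replicate numbers are those of the sample titles. Deviations of same-numbered livers from their group means correlated at 0.21 to 0.37 in all 4 pairs, each above the criterion of 0.1. That criterion cannot decide whether the numbers pair the livers, because livers with different numbers were not compared. The shift between replicates 1 and 2 and replicates 3 and 4 also enters these correlations. The reported values come from a fit without a block, and calls that a block on that number added or ended are named beside them. Alternatives changed the filter, the probe set per gene, the scaling, the block, the weights, the prior or the arrays. Only the splits within replicates 1 and 2 and within replicates 3 and 4 were added after seeing the data.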

Additional observations from a re-analysis of the deposited data

Results flagged for a closer look

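In 4 of 88 groups of 4 livers checked, over the 15 probe sets and the named genes of the wider lists, 1 liver stood apart from the other 3 by Dixon's test at the 95% level. Chance flags about 1 in 20 groups. Col4a1 at its brighter probe set read 9.16 on TrxR1/Gsr-null replicate 1, against 9.59 for the next liver of its group, and the Col4a1 difference without that array was -0.31 (adjusted p = 0.437). Ecm1 read 7.47 on TrxR1/Gsr-null replicate 3, against 8.49 for the next. Col18a1 read 11.31 on WT replicate 3, against 11.55 for the next WT liver, and remained called without it. Ttr, a hepatocyte plasma protein gene, read 13.74 on WT replicate 3, against 13.55 for the next.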

How the results depend on the processing

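No member other than Ccn2 was called among genes in any setting, and 0 members were called higher. The count of members called lower was 1 as reported, and 1 with the mean of probe sets, both other scalings, array weights, the replicate block, the split of replicates as a block, and within replicates 1 and 2. It was 0 with no filter, with the lowest 60% left out (Ccn2 was not tested), with a trended prior, without WT replicates 3 and 4, within replicates 3 and 4, and 0 to 0 with 1 array left out. Among probe sets it was 0 as reported and with the replicate block, but 1 with the lowest 60% left out, quantile normalization, median centring, the split as a block, array weights, and within replicates 1 and 2. With the replicate block the Ccn2 call held (adjusted p = 0.0455). Over the members and wider lists the block added 9 lower calls and 1 higher call and ended 1, that of Lgals3. Over all genes tested it raised the lower calls from 162 to 240 and the higher calls from 337 to 454.

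Small differences changed sign. Col3a1 was 0.052 with the mean of its probe sets. Array weights gave 0.21 for Col1a1 among genes, 0.0065 and 0.087 for its probe sets among all probe sets, and 0.054 for the dimmer Des probe set. Without WT replicates 3 and 4 the values were -0.084 for Lum, 0.11 for the dimmer Col1a1 and 0.30 for the dimmer Des probe set. Within replicates 1 and 2 they were 0.13 and 0.020 for the Col1a1 probe sets, -0.46 for Lum and 0.11 and 0.076 for those of Des. With 1 array left out Col1a1 ranged from -0.50 to 0.62 at its brighter and from -0.084 to 0.097 at its dimmer probe set, and the dimmer Des probe set from -0.47 to 0.072. Lower calls in the 5 matrix lists were 2 with the mean of probe sets and without WT replicates 3 and 4. They were 8 with a trended prior, 9 with array weights, 11 with either block, and 0 within replicates 3 and 4. Lower calls over all genes moved too, from 162 as reported to 187 with the mean of probe sets and 138 without WT replicates 3 and 4. They were 212 with a trended prior and 428 with array weights. With the replicate block they were 240, with the split as a block 334, and within replicates 3 and 4 30. The causes of these moves were not tested.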
